A study of Mus musculus with 10 samples.

Results

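The mu class of glutathione transferases was examined in the RPE (retinal pigment epithelium), a sheet of pigmented cells behind the retina, of wild-type CD1 mice at P40. Its 7 members, Gstm1 to Gstm7, are the listed Gstm genes of a cluster on mouse chromosome 3, matched by symbol and Ensembl identifier among the 47729 genes of the deposited count table. Each of 5 mice gave 1 Nrf2 eye and 1 GFP control eye, so there were 5 libraries per group. The GFP control eyes had received an AAV (adeno-associated virus) that carries GFP behind the Best1 promoter, which is active in the RPE, and the Nrf2 eyes had received that vector plus an AAV with Nrf2 behind the same promoter. The Nrf2 eyes therefore held an additional vector, and an effect of the added vector cannot be told apart from one of Nrf2 here. The Nrf2 coding sequence in the vector was human. No eye was left without vector, and each eye was checked for GFP at collection per the labels. The comparison asked how overexpression of Nrf2 in the RPE alone changed the RNA of otherwise normal eyes.

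Glutathione transferases join the tripeptide glutathione to reactive, electrophilic compounds, which makes them more soluble and marks them for export. The mu enzymes are cytosolic members of this superfamily, and Gstm1 is an abundant mu transferase of mouse liver. Nrf2 is a transcription factor that is held in check by Keap1 and, once released, binds with small Maf proteins to antioxidant response elements near genes of the defense against oxidants and electrophiles. The RPE is exposed to light, lipid peroxides and retinoids, and glutathione-dependent enzymes are among its defenses.

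All 7 genes lay within 149.1 kb of chromosome 3 (GRCm38, chr3:107895821-108044894). From left to right these were Gstm5 (chr3:107895821-107898686), Gstm7 (chr3:107926334-107931817), Gstm6 (chr3:107938847-107943749), Gstm3 (chr3:107963696-107969283), Gstm2 (chr3:107981702-107986453), Gstm1 (chr3:108012255-108017973) and Gstm4 (chr3:108040408-108044894). Gstm5 was on the plus strand and the other 6 were on the minus strand. Each is annotated as protein coding with 8 coding exons. The coding sequences were close copies of each other. Identity to Gstm1 was 89.5% for Gstm3, 86.0% for Gstm2, 82.8% for Gstm6, 82.6% for Gstm7, 80.2% for Gstm4 and 71.2% for Gstm5. Because this likeness bears on how reads could be counted, the first 60 coding bases are shown from the GENCODE M21 transcripts, 5′ to 3′, with capitals where a base differs from Gstm1. For Gstm5, whose coding sequence is longer (675 against 657 bases), the matching bases 10 to 69 are given.
Gstm1: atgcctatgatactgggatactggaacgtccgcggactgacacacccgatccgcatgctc
Gstm2: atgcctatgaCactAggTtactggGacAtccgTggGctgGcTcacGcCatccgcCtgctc
Gstm3: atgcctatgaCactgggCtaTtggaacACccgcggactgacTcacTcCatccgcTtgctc
Gstm4: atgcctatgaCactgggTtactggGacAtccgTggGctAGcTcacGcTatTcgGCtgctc
Gstm5: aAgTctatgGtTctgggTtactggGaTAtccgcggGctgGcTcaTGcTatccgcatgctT
Gstm6: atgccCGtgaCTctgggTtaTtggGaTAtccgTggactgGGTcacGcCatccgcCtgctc
Gstm7: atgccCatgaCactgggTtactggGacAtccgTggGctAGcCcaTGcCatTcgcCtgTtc
In this stretch Gstm3 differed from Gstm1 at 9 bases, Gstm2 at 12, Gstm4 at 14, Gstm5 at 15, and Gstm6 and Gstm7 at 16 each. Over the whole annotated transcripts, 28.8% of the 50-base stretches of Gstm3 also occurred in the transcripts of another gene. The share was 18.9% for Gstm1, 9.44% for Gstm5, 5.97% for Gstm6, 5.65% for Gstm2 and 0.53% for Gstm7. No stretch of Gstm4 was shared. With stretches of 100 bases the share was 13.8% for Gstm3 and 5.86% for Gstm1. Most of each transcript was thus unique to its gene, Gstm3 included, but Gstm3 had few counts, and its values are uncertain, since they could hold reads of copies.

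Library totals ran from 12298404 to 27310638 counts, and a count of 0 allows up to 3 counts, or between 0.110 and 0.244 CPM, the unit that divides the counts of a gene by the total of its library and puts every library on the same scale. The labelled tissue was checked on 13 RPE marker genes. All were detected, with a summed level of 24531 to 47118 CPM in control eyes and 13059 to 32240 CPM in Nrf2 eyes, lower in the Nrf2 eye in 5 of 5 mice, and 6 of the 13 were called lower. RNA of other cells was present. Rod markers summed to 163 to 21393 CPM in control eyes and 312 to 8326 CPM in Nrf2 eyes, with both highest group values in mouse 2, and 0 of 11 tested rod genes were called by edgeR (1 had an unadjusted p under 0.05, and DESeq2 called 1 lower). Microglia and macrophage markers summed to 163 to 289 CPM in control eyes and 363 to 1792 CPM in Nrf2 eyes, and 11 of 13 were called higher. Muscle markers summed to 59.9 to 138 CPM in control eyes and 8.29 to 686 CPM in Nrf2 eyes, and 0 of 10 were called by edgeR or DESeq2 or had an unadjusted p under 0.05. In none of these lists was a marker at 0 in all libraries. Mouse Nfe2l2, the gene of Nrf2, stood at 79.3 to 110 CPM in control eyes and 267 to 414 CPM in Nrf2 eyes (log2 fold change 1.97, edgeR adjusted p = 0.000299). Whether reads of the human sequence were counted there was not tested.

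Gstm1 was the member whose level rose most in CPM. In the GFP control eyes of mice 1 to 5, Gstm1 stood at 77.0, 59.7, 74.0, 123 and 68.2 CPM. In their Nrf2 eyes it stood at 3912.5, 5929.7, 4594.5, 6716 and 5769 CPM. The lowest Nrf2 eye was thus far above the highest control eye. The means were 80.4 ± 24.8 CPM and 5384 ± 1119 CPM (SD, n = 5), a log2 fold change of 6.07 (SE 0.17, edgeR adjusted p = 5.02e-05) or 67.1-fold. The within-mouse difference ran from 5.70 in mouse 4 to 6.62 in mouse 2 on the log2 scale. Among the 16362 genes tested, Gstm1 ranked 18 by log2 fold change. In RNA pooled from many cells, a change in the number of cells of a type and a change in RNA per cell cannot be told apart.

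**Figure D1:**
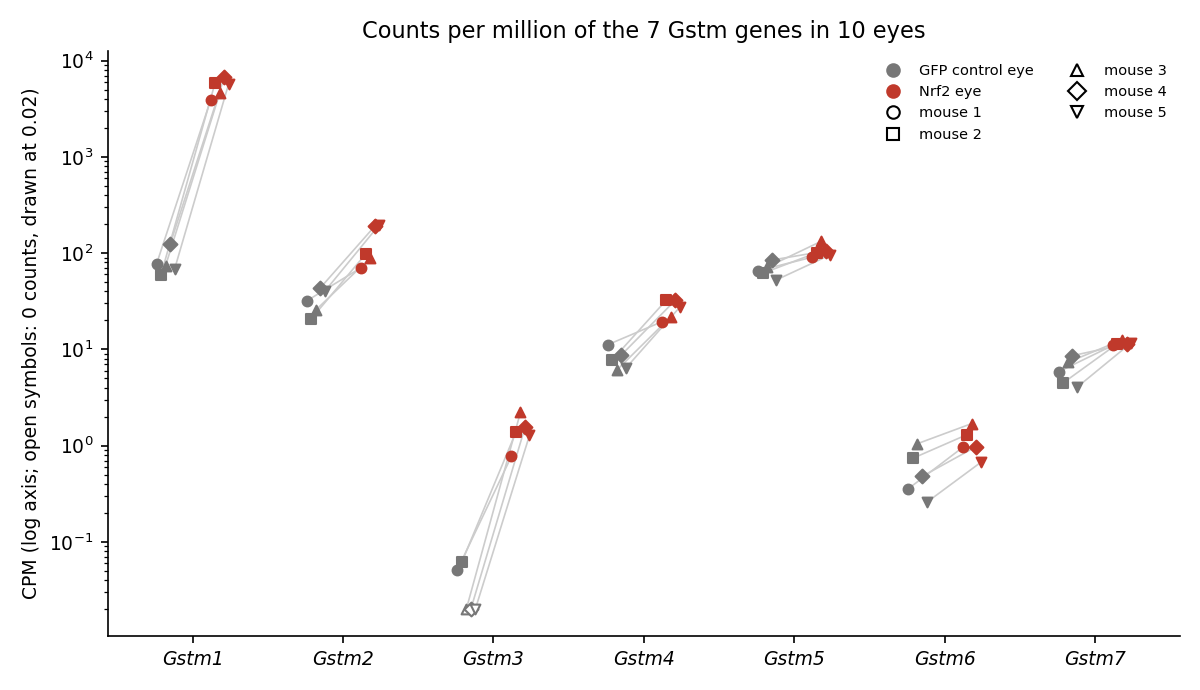
Level of each Gstm gene in 10 eyes, in CPM on a log axis, with gray symbols for GFP control eyes, red symbols for Nrf2 eyes, a symbol shape per mouse and lines that join the eyes of a mouse. Open symbols mark the 3 control eyes without a Gstm3 count, drawn at 0.02. Groups were apart for every member other than Gstm6, and the gap was widest for Gstm1 (59.7 to 123 CPM against 3912.5 to 6716 CPM).

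Gstm2 and Gstm4 rose to a similar degree. Gstm2 stood at 32.0, 20.9, 25.7, 43.7 and 40.4 CPM in the control eyes of mice 1 to 5 and at 70.6, 97.6, 89.0, 190 and 196 CPM in their Nrf2 eyes. This was a log2 fold change of 1.90 (SE 0.18, edgeR adjusted p = 0.00119), or 3.73-fold. The Nrf2 eyes of mice 4 and 5 were higher than the other 3, as were their control eyes. Gstm4 stood at 11.2, 7.76, 6.08, 8.72 and 6.37 CPM in control eyes and at 19.4, 32.5, 21.9, 32.4 and 27.5 CPM in Nrf2 eyes. The rise was 1.73 on the log2 scale (SE 0.22, edgeR adjusted p = 0.00361), or 3.31-fold. Mouse 1 had the smallest within-mouse difference for both genes, 1.21 for Gstm2 and 0.86 for Gstm4 on the log2 scale. In the other 4 mice these differences lay between 1.81 and 2.20 for Gstm2 and between 1.82 and 2.04 for Gstm4. Of all pairs of members, Gstm2 and Gstm4 had the most alike changes, with a root mean square difference of 0.22 over the 5 within-mouse log2 values.

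Gstm5 and Gstm7 had smaller fitted rises. Gstm5 stood at 65.6, 61.7, 71.5, 84.6 and 52.6 CPM in the control eyes of mice 1 to 5 and at 90.8, 101, 133, 105 and 96.0 CPM in their Nrf2 eyes. The lowest Nrf2 eye (mouse 1) was only just above the highest control eye (mouse 4), and the log2 fold change was 0.64 (SE 0.11, edgeR adjusted p = 0.019), or 1.55-fold. The call was lost without mouse 2 (log2 fold change 0.66, edgeR adjusted p = 0.0587) and without mouse 5 (0.60, 0.0647), with changes of about the same size. Gstm7 stood at 5.87, 4.50, 7.33, 8.60 and 4.03 CPM in control eyes and at 11.02, 11.5, 12.6, 11.4 and 11.7 CPM in Nrf2 eyes. The Nrf2 eyes lay close together (SD 0.575 CPM) while the control eyes were more spread (SD 1.92 CPM). Its log2 fold change was 0.98 (SE 0.19, edgeR adjusted p = 0.0363), or 1.97-fold, and within mice it ran from 0.34 to 1.42. This call was lost without mouse 1 (adjusted p = 0.082), mouse 2 (0.127), mouse 3 (0.0814) or mouse 5 (0.101), with log2 fold changes of 1.01, 0.93, 1.08 and 0.86. With the rod markers as a covariate it was lost too (0.0562), at a log2 fold change of 1.16. Over the 13 alternative analyses the adjusted p of Gstm7 was 0.000961 with DESeq2 and ran from 0.0272 to 0.127 with edgeR.

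Gstm3 and Gstm6 were the members with the lowest levels. Gstm3 had 1, 1, 0, 0 and 0 counts in the control eyes of mice 1 to 5 and 17, 34, 59, 19 and 21 counts in their Nrf2 eyes. In CPM, the control eyes of mice 1 and 2 were at 0.0510 and 0.0616, against 0.774 to 2.22 in Nrf2 eyes. The 0 counts of the control eyes of mice 3, 4 and 5 allow up to 0.2095, 0.179 and 0.110 CPM. The ratio of the summed counts, scaled to the library totals, was 69.3 with a 95% exact interval of 18.9 to 578, which covers counting error only. The fitted edgeR adjusted p was 0.00477, and the fitted log2 fold change of 5.59 depends on the prior count. Gstm3 passed the filter on low counts only through its Nrf2 eyes, so it had to differ. Gstm6 stood at 0.357, 0.739, 1.05, 0.478 and 0.256 CPM in control eyes and at 0.956, 1.30, 1.69, 0.976 and 0.668 CPM in Nrf2 eyes. It was higher in the Nrf2 eye of each mouse, but the groups overlapped and the difference did not pass the test (log2 difference 1.02, SE 0.11, edgeR adjusted p = 0.108). The counts behind Gstm6 were small, with 49 counts summed over control eyes and 121 over Nrf2 eyes. It too reached the filter level in 5 of 5 Nrf2 eyes and only 2 of 5 control eyes.

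The likeness of Gstm3 to Gstm1 bears on its counts. Of its 1262 stretches of 50 bases, 202 also occurred in the gene model Gm8834, 139 in Gstm2-ps1, a processed pseudogene, and 124 in Gstm1. In the Nrf2 eyes Gstm3 held 0.0198% to 0.0483% as many counts as Gstm1. Gstm2-ps1, which shares 46.9% of its own stretches with other genes, most often Gstm1, had 0, 1, 0, 1 and 2 counts in control eyes and 41, 75, 78, 38 and 49 counts in Nrf2 eyes. Its counts were 0.0460% to 0.0638% of those of Gstm1 in the Nrf2 eyes. In the control eyes of mice 1 and 2, Gstm3 held 0.0663% and 0.103% as many counts as Gstm1, each from a single count. The within-mouse difference of Gstm3 was largest in mouse 3 (4.58) and smallest in mouse 1 (2.57), while that of Gstm1 was largest in mouse 2 and smallest in mouse 4. Whether reads of Gstm1 were counted under Gstm3 or Gstm2-ps1 was not tested. Gstm5 shared stretches only with the antisense gene 4933431E20Rik (129 of 1367), whose log2 difference was 0.07 (edgeR adjusted p = 0.905).

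Among the 16362 genes tested, 1036 were called at an adjusted p under 0.05, or 6.33%, of which 589 were higher in Nrf2 eyes (3.60%) and 447 lower (2.73%). The number called depended on the analysis, from 491 with the rod covariate to 1803 with DESeq2. Of the 7 mu genes, 6 were called higher, and Gstm6 was not called (edgeR unadjusted p = 0.0107). DESeq2 with the same mouse block called 6 higher. No member was lower at any p, since all 7 differences were above 0. All 7 were higher in the Nrf2 eye in 5 of 5 mice, against 9.23% of the genes tested. In the 6 called members every Nrf2 eye was above every control eye, against 3.87% of the genes tested. These counts hold the 2 members that passed the filter through their Nrf2 eyes. The median log2 difference was 1.73 over the 7 members and -0.01 over all genes tested.

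**Figure D2:**
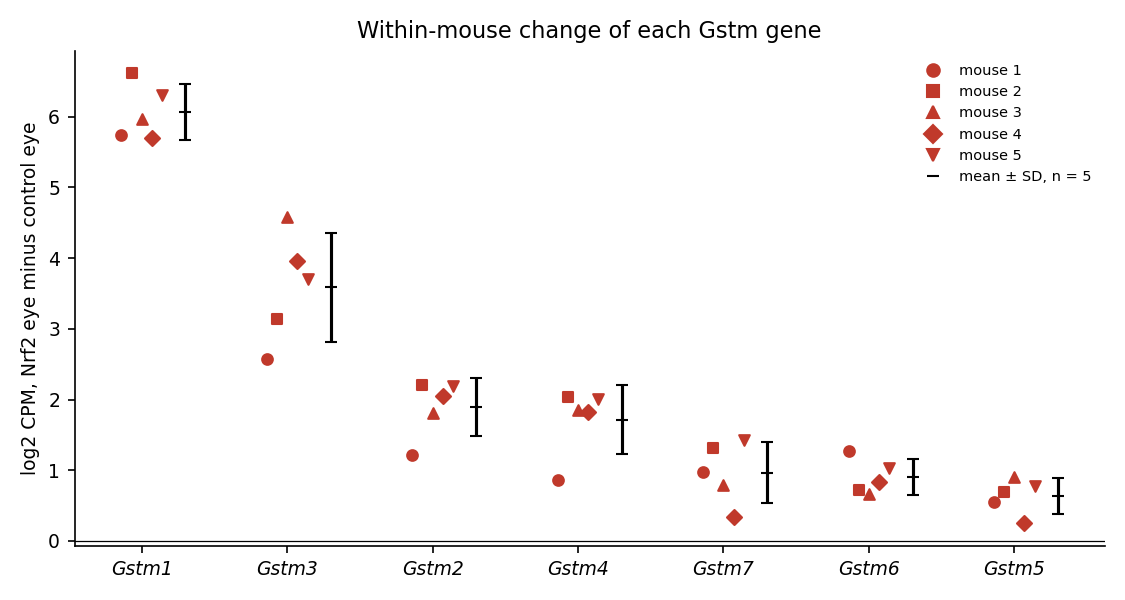
Within-mouse difference in log2 CPM (Nrf2 eye minus control eye) of each Gstm gene, with a symbol per mouse and black bars for the mean ± SD (n = 5). All 35 differences were above 0, from 0.25 for Gstm5 in mouse 4 to 6.62 for Gstm1 in mouse 2.

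The change of Gstm1 was set against that of each other member within the same mouse. On the log2 scale it was larger by 4.18 ± 0.34 than that of Gstm2, by 4.35 ± 0.39 than that of Gstm4, by 5.43 ± 0.33 than that of Gstm5, by 5.16 ± 0.53 than that of Gstm6 and by 5.10 ± 0.26 than that of Gstm7 (SD, n = 5). Against Gstm3 the difference was 2.48 ± 0.89 and fell to 0.98 with a smaller prior count, so its size is uncertain. Gstm1 changed more in 5 of 5 mice in each of the 6 pairs. A two-sided exact paired permutation test gave p = 0.0625 for each pair, also after adjustment over the 6 pairs. This is the smallest p that 5 mice allow, so the test could not pass the threshold at any size of difference. No conclusion is drawn from that test. Nor is one drawn from the pair of Gstm1 with Gstm3, which passed the filter only through its Nrf2 eyes. In the order of fitted change, Gstm3 followed Gstm1 and exceeded Gstm2 by 1.70 ± 0.69 in log2 change, a value that depends on the prior count and on a gene that passed the filter only through its Nrf2 eyes, so nothing is read from its place. Gstm2 exceeded Gstm4 by 0.18 ± 0.14 in log2 change, in 4 of 5 mice, Gstm4 exceeded Gstm6 by 0.81 ± 0.70, in 4 of 5 mice, and Gstm7 exceeded Gstm5 by 0.33 ± 0.34, in 4 of 5 mice. Gstm6 and Gstm7 differed by -0.06 ± 0.46, less than the spread between mice. Gstm6 too passed the filter only through its Nrf2 eyes, so nothing is read from its place or from its pair with Gstm1.

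The make-up of the family changed with it. Levels of different genes were compared as CPM per kb of merged exon length. In the control eyes Gstm1 (54.6 ± 16.8) and Gstm5 (52.6 ± 9.33) were the most abundant and did not differ beyond their spread, with Gstm1 higher in 3 of 5 eyes. Gstm2 followed at 19.4 ± 5.72, then Gstm4 (4.70 ± 1.21) and Gstm7 (3.79 ± 1.20), which overlapped. Gstm6 at 0.289 ± 0.161 and Gstm3 at 0.0172 CPM per kb were last. In the Nrf2 eyes Gstm1 stood at 3655 ± 760 CPM per kb, far above Gstm5 (82.3 ± 12.8) and Gstm2 (76.6 ± 35.5), which overlapped. With the length of the longest transcript in place of the merged exons, Gstm2 (121) was above Gstm5 (97.2) in Nrf2 eyes, so their order there is uncertain. Gstm4 (15.7 ± 3.52) and Gstm7 (7.26 ± 0.359) came next, and Gstm3 (1.10 ± 0.398) was above Gstm6 (0.562 ± 0.197) in 5 of 5 eyes although their ranges overlapped. With the longest transcript Gstm6 stood at 0.949 ± 0.332 beside 1.10 ± 0.398 for Gstm3, so that order is uncertain too. The share of Gstm1 in the summed per-length level was 39.8% ± 2.91 in control eyes and 95.2% ± 0.590 in Nrf2 eyes (SD, n = 5). The share of Gstm5 was 39.2% ± 4.27 and 2.23% ± 0.611, although its own level rose.

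**Figure D3:**
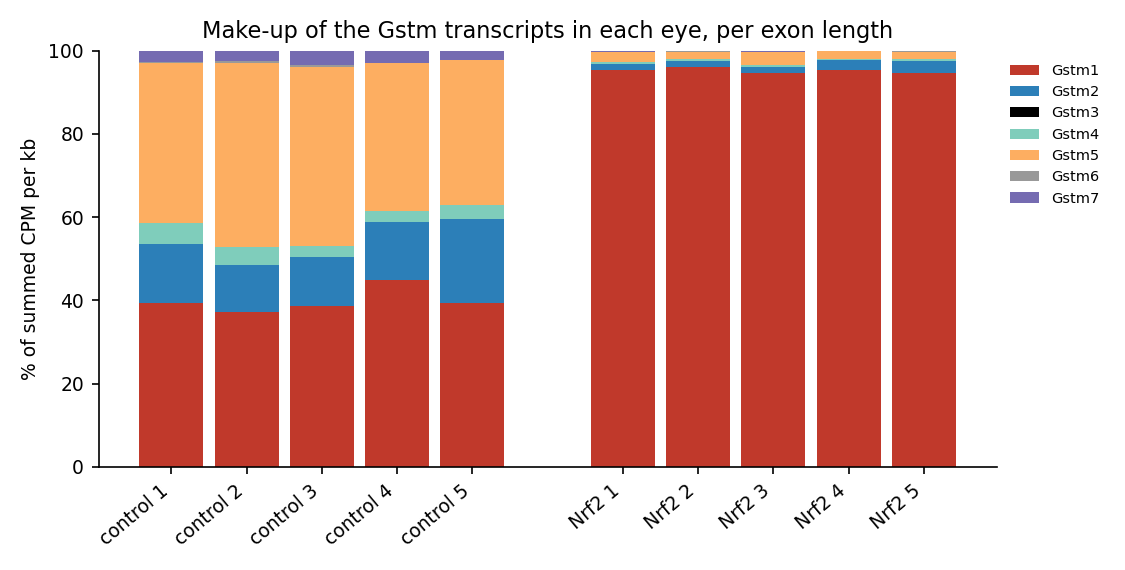
Share of each Gstm gene in the summed CPM per kb of the family, in percent, in the 5 control and 5 Nrf2 eyes. Gstm1 took 37.2% to 44.8% in control eyes, beside a similar share of Gstm5, and 94.5% to 96.1% in Nrf2 eyes.

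Summed over the 7 genes, the level was 195 ± 43.9 CPM in control eyes and 5659 ± 1170 CPM in Nrf2 eyes (SD, n = 5). With the members taken as 1 feature in the fit, the log2 fold change was 4.84 (SE 0.15, edgeR adjusted p = 6.03e-05), or 28.7-fold, and ran from 4.49 to 5.30 within mice. A sum is not affected by reads assigned to the wrong member. The 6 members without Gstm1 summed to 114 ± 19.3 CPM in control eyes and 275 ± 62.4 CPM in Nrf2 eyes. Most of the added mu transcript was thus Gstm1, which held 38.4% to 45.7% of the members' counts in control eyes and 94.5% to 96.0% in Nrf2 eyes.

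Over the 13 alternative analyses, which include a covariate for the rod list or for the muscle list, the log2 fold change of Gstm1 stayed between 5.97 and 6.19, that of Gstm2 between 1.80 and 2.10 and that of Gstm4 between 1.63 and 1.98. The microglia and macrophage markers (11 of 13 called higher) and the RPE markers (6 of 13 called lower) were not used as covariates, and their part in the levels of the mu genes was not tested.

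The rest of chromosome 3 around the cluster was compared next. Of 35 genes within 250 kb on either side or inside it, 14 were tested, and their median log2 difference was -0.05. Csf1, the growth factor of macrophages and microglia and the nearest tested protein-coding gene to the left at 135.4 kb, was the only one called, and 1 of 14 is near the 6.33% called among all genes tested. It stood at 10.8 to 24.7 CPM in control eyes and 43.8 to 54.4 CPM in Nrf2 eyes, a log2 fold change of 1.91 (SE 0.23, edgeR adjusted p = 0.00257). Ampd2, an AMP deaminase and the nearest to the right at 29.2 kb, stood at 55.1 ± 9.58 and 57.3 ± 8.44 CPM (SD, n = 5), a log2 difference of 0.05 (edgeR adjusted p = 0.912).

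**Figure D4:**
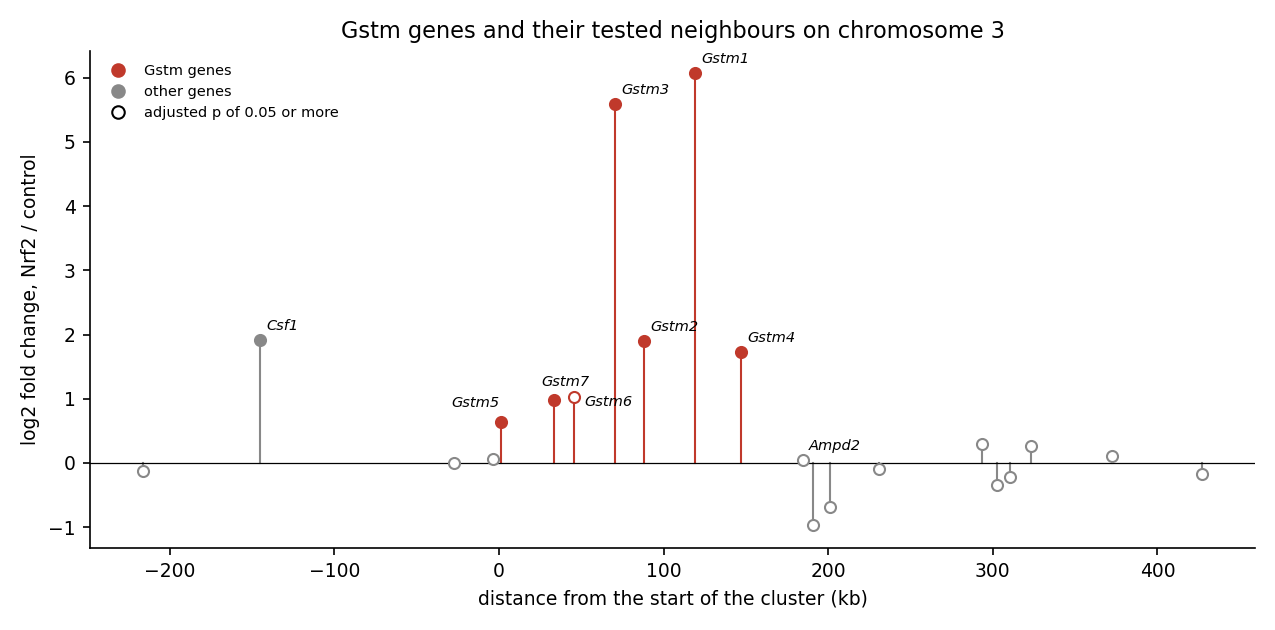
Log2 fold change of the Gstm genes (red) and the 14 other tested genes (gray) within 250 kb, against the distance of the gene's middle from the left end of the cluster in kb. Open symbols did not pass the adjusted p of 0.05, and Csf1 was the only gray gene that did.

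Since the members moved in the same direction, their promoters were searched for the core of the antioxidant response element, TGACNNNGC, where N is any base, on both strands. RefSeq windows on GRCm38.p6 from 250 bases before to 50 bases after each start were used, and all 7 genes had at least 1 window. The motif was present in 12.4% of 32851 windows of all genes, or in 1 or more windows of 3781 of 27025 genes. Of the mu genes, Gstm5 and Gstm7 held a match and the other 5 held none. The windows with a match are shown with that of Gstm1, the member whose level changed most, each 5′ to 3′ on the strand of its gene and with capitals for the match.
Gstm5, chr3:107895604-107895903, plus strand: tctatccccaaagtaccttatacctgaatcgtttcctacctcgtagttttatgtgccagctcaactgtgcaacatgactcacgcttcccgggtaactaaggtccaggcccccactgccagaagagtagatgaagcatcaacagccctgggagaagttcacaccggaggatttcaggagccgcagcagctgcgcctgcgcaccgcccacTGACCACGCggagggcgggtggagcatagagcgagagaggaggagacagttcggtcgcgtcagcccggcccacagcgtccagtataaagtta
Gstm7, chr3:107931565-107931864, minus strand: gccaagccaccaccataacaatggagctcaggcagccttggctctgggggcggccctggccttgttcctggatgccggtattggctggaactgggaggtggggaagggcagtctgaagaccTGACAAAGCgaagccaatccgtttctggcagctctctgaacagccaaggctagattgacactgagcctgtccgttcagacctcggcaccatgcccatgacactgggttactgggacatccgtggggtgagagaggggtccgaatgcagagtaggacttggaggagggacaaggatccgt
Gstm1, chr3:108017924-108018223, minus strand: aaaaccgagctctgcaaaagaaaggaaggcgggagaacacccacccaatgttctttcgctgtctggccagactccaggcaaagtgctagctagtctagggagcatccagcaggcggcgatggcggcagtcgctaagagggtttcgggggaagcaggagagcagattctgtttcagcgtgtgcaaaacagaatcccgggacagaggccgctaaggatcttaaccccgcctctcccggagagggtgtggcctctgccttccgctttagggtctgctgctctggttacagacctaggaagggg
The match of Gstm5, TGACCACGC, began 42 bases before the start, and that of Gstm7, TGACAAAGC, 129 bases before the start of its window. That start lies inside Gstm7 as GENCODE annotates it, and so does the match, while the other RefSeq window of Gstm7 (chr3:107931768-107932067), which covers the GENCODE start, held none. The fitted log2 fold changes of these genes (0.64 and 0.98) were below those of Gstm1, Gstm2 and Gstm4, which had no match in their windows, although in mouse 1 the change of Gstm7 (0.97) exceeded that of Gstm4 (0.86). Gstm3 and Gstm6 also had no match. Gstm6, which was not called, had a log2 difference of 1.02, close to that of Gstm7. The second RefSeq window of Gstm1 held none either. A match describes letters only, and none in this window does not say where Nrf2 binds. The looser motif TGANNNNGC, which contains the first, was found for 4 members (Gstm3, Gstm4, Gstm5 and Gstm7) and in 12174 of the 27025 genes.

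By the same root mean square measure over 5 mice, the genes whose within-mouse changes were most like those of Gstm1 were Cyp1a1 (0.47), Hmox1 (0.48), Acox2 (0.50), Btn2a2 (0.54) and Pard3bos3 (0.60). Hmox1, which encodes the heme-degrading heme oxygenase 1, stood at 7.25 to 14.7 CPM in control eyes and 527 to 800 CPM in Nrf2 eyes. Acox2, an oxidase of branched-chain acyl-CoA in peroxisomes, stood at 0.801 to 2.51 and 75.5 to 101 CPM. Cyp1a1, a cytochrome P450, Btn2a2, a butyrophilin, and the antisense gene Pard3bos3 were at or under 0.239 CPM in control eyes, so their place in this order depends on the prior count.

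The other glutathione transferases moved in both directions. Of 16 further genes in the table outside the microsomal group, 14 were tested, 4 rose and 2 fell, with a median log2 difference of 0.32. DESeq2 called 5 of the 14 higher and 2 lower. The alpha genes Gsta2 (41.7 ± 6.62 to 404 ± 106 CPM, log2 fold change 3.23), Gsta1 (48.4 ± 10.4 to 386 ± 80.1 CPM, 2.98) and Gsta3 (193 ± 46.0 to 850 ± 136 CPM, 2.14) rose, as did the pi gene Gstp1 (1.63). Gsta1 and Gsta2 are near copies, so their separate values are uncertain. The theta genes Gstt2 and Gstt3 fell by 0.97 and 0.61 on the log2 scale. Gsta4 went from 1846.5 ± 667 to 3339 ± 241 CPM (SD, n = 5) and just missed the threshold (log2 difference 0.91, edgeR adjusted p = 0.0501). Of 6 microsomal genes and relatives, Ltc4s, the leukotriene C4 synthase (2.59), and Mgst1 (0.94) rose and the prostaglandin E synthase Ptges fell by 0.69. Ltc4s, at 0.209 to 1.05 CPM in control eyes and 2.36 to 6.435 CPM in Nrf2 eyes, passed the filter on low counts only through its Nrf2 eyes. DESeq2 called 3 of the 6 higher and 1 lower. Alox5ap, whose protein activates 5-lipoxygenase, had a log2 difference of 1.78 (edgeR adjusted p = 0.198). Microglia and macrophage markers rose in the same eyes (11 of 13 called), and their part in these values was not tested.

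The genes that supply the co-substrate and carry off the products were described beside the mu genes. All 5 genes of glutathione supply rose. These were Gclc (4.46) and Gclm (2.95), the subunits of glutamate-cysteine ligase, the cystine transporter Slc7a11 (3.52), glutathione synthetase Gss (2.12) and glutathione reductase Gsr (1.61), all as log2 fold changes. The log2 fold change of Gstm1 was 6.07, and its difference from these values was not tested. Of 7 genes for the export of conjugates 3 rose, the transporters Abcc3 (4.36), Abcc4 (2.79) and Abcc1 (1.32), while Abcc5 had a log2 difference of -0.11 (edgeR adjusted p = 0.727). Abcc3 stood at 0 to 0.663 CPM in control eyes and 4.07 to 12.9 CPM in Nrf2 eyes. It passed the filter on low counts only through its Nrf2 eyes, so it had to differ, and its fitted change depends on the prior count. Of 12 tested genes that process conjugates to mercapturates, Ggt5, a gamma-glutamyl transferase, rose (2.77), the dipeptidase Dpep2 fell by 1.99 and the acetyltransferase relative Nat8f1 fell by 0.98. DESeq2 called 3 of the 12 higher and 2 lower. Over all genes tested, edgeR called 6.33% in either direction. Ggt7 had a log2 difference of 1.09 (edgeR adjusted p = 0.0501). Of 7 genes for Nrf2 and its partners, Nfe2l2, the repressor Bach1 (0.84) and the small Maf gene Mafg (0.77) rose, and Keap1 had a log2 difference of 0.35 (edgeR adjusted p = 0.0875). DESeq2 called 4 of the 7 higher.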

How the data were processed

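RNA of 10 libraries from 5 mice was analysed. Per the labels, the retina was removed, the cleaned eyecup was put in a solution that stabilizes RNA, RPE RNA was purified from the supernatant, its polyA fraction was amplified with a kit for small inputs, and sequencing took 2 runs, which were not compared because the labels do not assign libraries to them. The authors aligned reads with STAR to mm10 with Ensembl transcripts and counted them with featureCounts, and in parallel estimated counts with Salmon (0.8.2 in the submitters' processing notes). Which of these made the table, the strand setting and the read length are not given in the sources used here. The deposited table holds whole, unnormalized counts for each gene. Without the strand setting, overlapping genes on opposite strands are uncertain, and reads of close copies may have been dropped or split.

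The table held 47729 genes, 15729 of them without a count, and 0 columns of other samples. GENCODE M21 (GRCm38) named 47310 of the identifiers (99.1%). Library totals ran from 12298404 to 27310638 counts. CPM were computed from the library totals. Floors of 3 counts and 95% exact intervals cover counting error alone, because amplification copies molecules. All pairs of libraries differed by more than sampling noise (smallest chi-square per degree of freedom 37.1).

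Groups were compared with edgeR 4.0.16 in R 4.3.3 (filterByExpr, TMM, quasi-likelihood F test blocked by mouse, Benjamini-Hochberg threshold 0.05) over all 16362 genes that passed, and tested on simulated data first. Every adjusted p is from this test unless another is named. The SE was obtained from the 5 differences in log2 CPM between the eyes of a mouse (prior count 2, TMM-scaled totals), as their SD over the square root of 5. Eyes were paired by the animal number in the labels. Their deviations from the group means correlated across genes with r of 0.186 to 0.707 in the 5 mice. Shared stretches were counted between each member's annotated transcripts and those of all other genes, on either strand.

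Genes named beside the 7 members were the nearest tested protein-coding gene on each side, the 5 genes nearest to Gstm1 in within-mouse change, Nfe2l2, and from each list that is not of markers up to 4 called genes with the largest change and the uncalled gene with the smallest adjusted p. Outside this rule, and after their values were seen, Gstt2, Gstt3 and Gsr were named to complete the called genes of their lists, Rlbp1 and Sox10 as single called markers, and Gstm2-ps1, Gm8834 and 4933431E20Rik because they share sequence with members. Csf1r and Best1 were named for their levels within their marker lists, likewise after their values were seen. The members and lists were chosen with earlier results of these data known. Of the marker lists, endothelium and fibroblasts had 0 called genes by edgeR or DESeq2 and 0 at an unadjusted p under 0.05, cones had 0 by edgeR (4 at an unadjusted p under 0.05, and 1 higher and 1 lower by DESeq2), Mueller glia had 1 lower (Rlbp1, also an RPE marker) and melanocytes 1 lower (Sox10). Alternatives were DESeq2 1.42.0, other size factors, other filters, thinned counts, covariates for rod or muscle markers, no block, and each mouse left out.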

Additional observations from a re-analysis of the deposited data

Results flagged for a closer look

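In the 5 Nrf2 eyes, the eye of mouse 3 stood apart from the other 4 for Gstm5 and for Gstm7. For Gstm5 it was at 7.13 log2 CPM against 6.53 to 6.66 in the others, a gap of 0.782 of the group's range. For Gstm7 it was at 3.74 log2 CPM against 3.46 to 3.53, a gap of 0.769 of the range. Dixon's 95% critical value for 5 samples is 0.71. Of 16 groups checked, 0.8 would be marked by chance. Without mouse 3, the log2 fold change of Gstm5 was 0.63 (edgeR adjusted p = 0.0498) and that of Gstm7 was 1.08 (edgeR adjusted p = 0.0814).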

How the results depend on the processing

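Of 101 alternative values of the members' and the summed log2 fold changes, 94 kept their direction and their side of the threshold, 7 lost the call and 0 reversed. Gstm1, Gstm2 and Gstm4 were called in 13 of 13 alternatives, while Gstm6 was called in 0 of 12 (edgeR or DESeq2 adjusted p of 0.105 to 0.315). Gstm3 was called in the 11 in which it could be fitted, which says nothing of stability, since it passed the filter only through its Nrf2 eyes. It did not pass a filter on a mean of 50 counts or thinning to the smallest library, nor Gstm6 the former. Gstm5 lost its call without mouse 2 or mouse 5, at log2 fold changes of 0.66 and 0.60 against 0.64. Gstm7 lost it without mouse 1, 2, 3 or 5, at 0.86 to 1.08 against 0.98, and with the rod covariate, at 1.16. Leaving out a mouse leaves fewer samples. The number of called genes was 1036, 1803 with DESeq2, 491 with the rod covariate and 584 to 857 with a mouse left out (584 without mouse 2, 613 without mouse 4, 683 without mouse 5). For DESeq2 and the rod covariate the cause was not tested. Without the replicate block 755 genes were called, 687 of them shared with the blocked fit, and the block changed no call of a member. With the longest transcript as length, the share of Gstm1 in Nrf2 eyes was 94.5%. With TGANNNNGC, 4 members held a match in place of 2. Sequence shared with close copies limits Gstm3 (28.8% of its stretches), and the unknown strand setting limits Gstm5, which overlaps an antisense gene.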
